A study of Oryza sativa Japonica Group with 12 samples.

Results

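The genes described here are those named as carriers of mineral ions in rice: the HAK, AKT and HKT carriers of potassium and sodium, the NRT2 and AMT carriers of nitrate and ammonium, the PT carriers of phosphate, and the NRAMP, ZIP, IRT, HMA and MTP carriers of metals. They were taken by name, not by value: a probe set that measures 1 gene was kept if the gene's symbol or a synonym, without the leading Os, began with one of these family names and a number. Names of bZIP factors, aquaporins and LOC4330161 were left out. This gave 80 genes, each with 1 probe set, of the 24251 probe sets tested. There were 27 genes of potassium and sodium transport, 12 of nitrogen, 10 of phosphate and 28 of metals. The other 3 matched by a synonym and carry another name or no subfamily number: GRF4, HCT3 and PHT3. These 3 belong to none of the ion classes but stay in every count of the 80 genes. The name rule found 0 SULTR and 0 NPF genes, so sulfate carriers and that nitrate and peptide family are not described. No filter on low values was applied, so all 80 genes entered the tests.

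The arrays were hybridised with RNA from stem bases of 6-day-old rice plantlets of the cultivar Taichung 65 that carry the crl1 mutation, which leaves a plant without crown roots. All 4 lines share that background, the controls included. OE 67.1 and OE 67.5 are the lines transformed with the pC5300 construct to overexpress the transcription factor gene OsbHLH044, and null 67.1 and null 67.5 are their sister lines that segregated without it. Each line had 3 arrays, from independent repetitions with pooled stem bases, and the 67.1 and the 67.5 lines form the 2 couples. The promoter of the construct was not used here, and each couple rests on 1 overexpression line and 1 sister line. In bulk tissue, fewer cells of a type and less RNA per cell cannot be told apart.

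Plants take mineral ions from the soil as charged solutes, and integral membrane proteins carry them across the plasma membrane, load them into the xylem or store them in the vacuole. In rice the stem base joins the root and the leaves, and its vascular tissue redistributes ions to growing organs. HAK proteins move potassium, with AKT1 as an inward channel and HKT1;5 as the carrier that takes sodium back out of the xylem. NRT2 and AMT1 proteins are high-affinity carriers of nitrate and ammonium, and PT proteins are phosphate carriers, some used with mycorrhizal fungi. NRAMP, ZIP and IRT proteins bring divalent metals into the cytosol, and HMA and MTP proteins move them out of it.

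The deposited values are log2 levels after RMA, and the arrays' medians lay between 4.34 and 4.39. Correlations between arrays ran from 0.959 to 0.990. The array null 67.5 replicate 1 stood apart: it correlated at 0.985 to 0.988 with the null 67.1 arrays and at 0.979 to 0.983 with the other arrays of its own line. Within couple 67.1, OE 67.1 replicate 2 correlated at 0.985 to 0.990 with the null arrays and at 0.985 with its own line. The lowest correlation, 0.959, was between null 67.1 replicate 1 and OE 67.5 replicate 3. Where leaving out null 67.5 replicate 1 changes a call among the genes described, the change is stated. Its effect on overlap is given for couple 67.5. Other counts use all arrays unless its removal is stated. Of the shoot meristem and stem markers, 5 of 6 lay above the median of every array, and 12 of 13 seed markers lay below every median. For root markers, 3 of 5 lay below every median. Green tissue markers, 10 of 11 above every median, averaged 6.59 to 6.72 in the null 67.1 arrays, 6.57 to 6.67 in OE 67.1, 6.81 to 7.05 in null 67.5 and 6.66 to 6.74 in OE 67.5. No tested probe set carried the name of OsbHLH044 or CRL1, whose levels are not analysed here.

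No transporter gene passed the test for a difference between overexpression and null lines, in either couple or in their mean. The test was limma's moderated test with Benjamini-Hochberg adjustment over all 24251 probe sets, at a threshold of 0.05 for the adjusted p. For the mean of both couples it called 0 of the 80 genes, against 45 of all tested (0.186%). For couple 67.1 it called 0 of 80, against 4 of all (0.0165%), and for couple 67.5 it called 0 of 80, against 83 of all (0.342%). At an unadjusted p under 0.05 the transporters were called about as often as other probe sets. Of the 80 genes, 6 reached it for the mean of both couples, which is 7.5% against 9% of all tested. In couple 67.1 it was 3 genes, 3.75% against 3.46%, and in couple 67.5 it was 7 genes, 8.75% against 10.8%.

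Beside the calls, the intervals give the sizes of difference that these arrays leave room for. For the mean of both couples the median SE was 0.079 on the log2 scale. The 95% interval lay within 0.5 of 0 for 77 of the 80 genes, against 97.3% of all tested, and within 0.25 for 51, against 55.4%. In couple 67.1 it lay within 0.5 for 72 genes, against 91.8% of all, and in couple 67.5 for 69, against 84.9%. The plot of the 80 differences with their intervals shows that most cross 0.

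**Figure D1:**
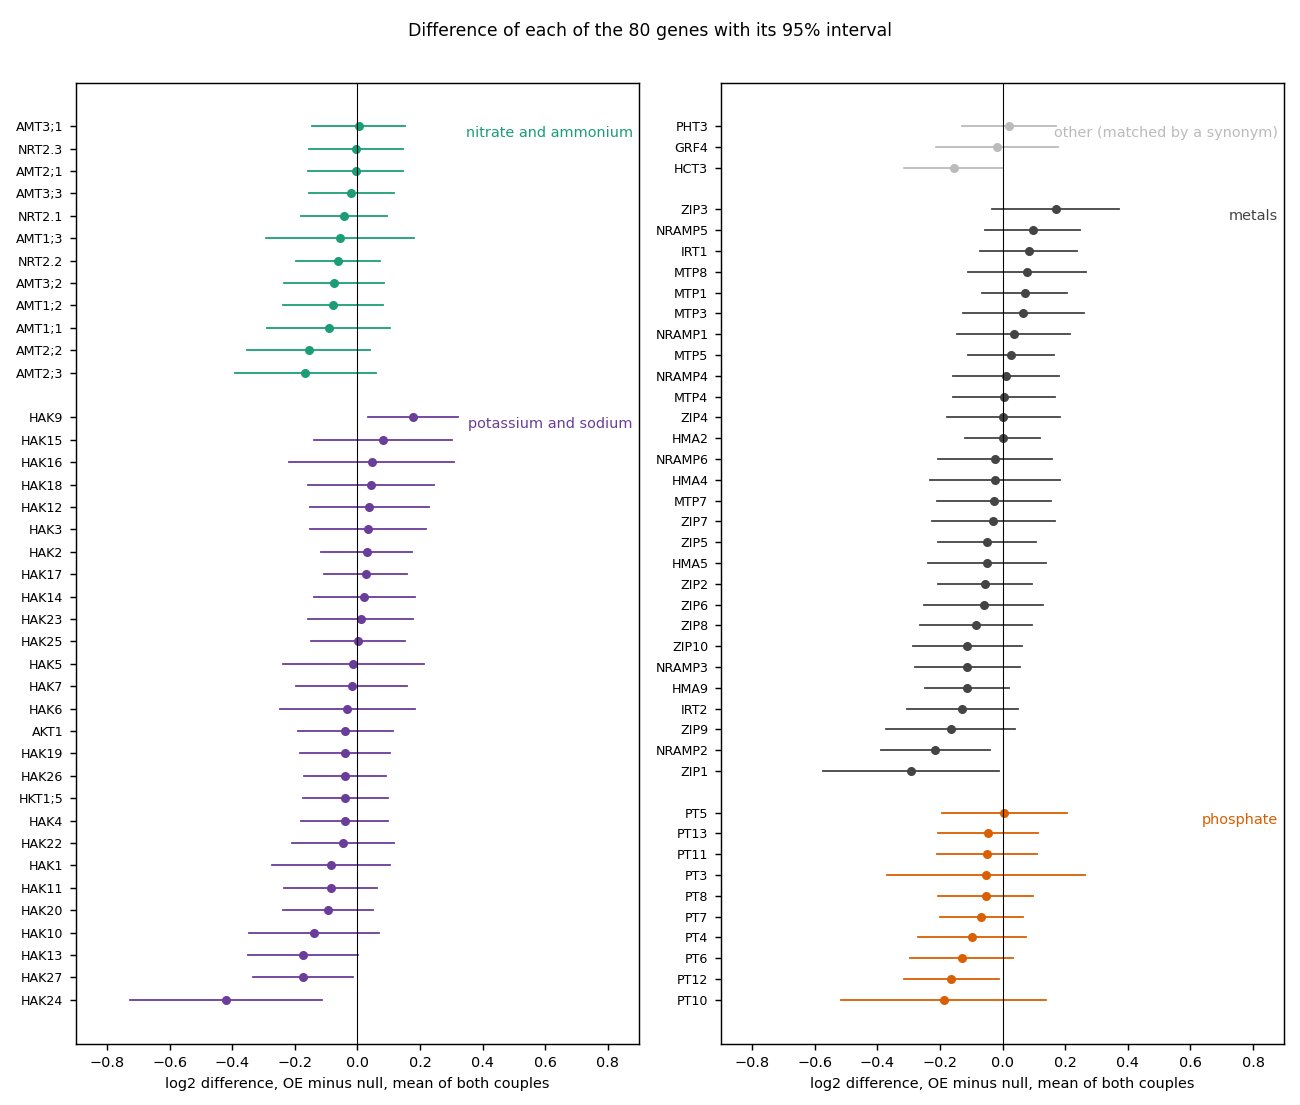
Log2 difference of each of the 80 genes, overexpression minus null, as the mean of both couples (point) with its 95% interval (bar), grouped by ion. Intervals that do not cross 0 belong to HAK24, HAK27, HAK9, PT12, NRAMP2 and ZIP1, and none of these genes passed after adjustment.

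The potassium and sodium carriers held the gene with the widest difference. HAK24 (LOC4340724), a member of the potassium carrier family whose own role is not described here, measured 3.93, 3.56 and 3.70 in null 67.1, 3.42, 3.52 and 3.75 in OE 67.1, 3.80, 4.71 and 4.64 in null 67.5, and 3.52, 3.60 and 4.01 in OE 67.5. The arrays of each couple overlapped, and 2 arrays of null 67.5 stood above all others. The difference was -0.42 ± 0.14 (SE, n = 3 arrays per line) for the mean of both couples, with an adjusted p of 0.385 by limma and a 95% interval from -0.73 to -0.11. In couple 67.5 it was -0.67 ± 0.20, with an adjusted p of 0.245 by limma. The null 67.5 array at 3.80 was replicate 1, the array that stood apart. Without it, couple 67.5 differed by -0.96 ± 0.15 with an adjusted p of 0.0311 by limma, and HAK24 was then the 1 member called among 51 of all tested (0.21%). The mean of both couples was then -0.57 ± 0.10, with an adjusted p of 0.0569 by limma and 0 members called, against 0.099% of all.

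HAK9 (LOC4344288) went the other way in couple 67.5. It measured 5.70, 5.88 and 5.69 in null 67.5 and 5.91, 6.17 and 6.16 in OE 67.5, and the groups did not overlap. The difference was 0.33 ± 0.09 (SE, n = 3), with an adjusted p of 0.22 by limma and an interval from 0.13 to 0.53. In couple 67.1 the levels were 5.87, 6.00 and 5.99 in the null line and 6.02, 5.92 and 5.99 with overexpression, and the arrays overlapped.

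HAK27 (LOC4333296) was the only member whose overexpression arrays all lay on the same side of their null arrays in both couples, which 1.2% of all probe sets did. It measured 2.68, 2.57 and 2.70 in null 67.1 against 2.54, 2.49 and 2.48 in OE 67.1, and 2.60, 2.56 and 2.99 in null 67.5 against 2.47, 2.54 and 2.55 in OE 67.5. All these levels were below the medians of the arrays, and the gaps between nearest arrays were small. The difference for the mean of both couples was -0.17 ± 0.07, with an adjusted p of 0.516 by limma.

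HAK10 (LOC4341573), a carrier known from the vacuolar membrane, measured 6.91, 6.57 and 6.90 in null 67.1 and 6.50, 6.15 and 6.70 in OE 67.1. The arrays overlapped, and the difference of -0.34 ± 0.14 had an adjusted p of 1.0 by limma. In couple 67.5 its levels were 6.60, 6.92 and 6.73 against 6.75, 6.90 and 6.79. Other carriers of the class, given for their known roles, did not pass either. HAK1, a high-affinity uptake carrier, lay between 5.05 and 5.55 on all arrays, with a mean difference of -0.09 (95% interval -0.27 to 0.10). HAK5, which takes part in potassium supply to the shoot, lay between 3.67 and 4.56, with a difference of -0.01 (-0.24 to 0.21). AKT1, between 2.84 and 3.13, and HKT1;5, between 2.81 and 3.11, each differed by -0.04. Of the 27 genes of this class, 16 were lower and 11 higher in the mean of both couples, with a median of -0.03. Of all tested, 46.8% were lower.

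**Figure D2:**
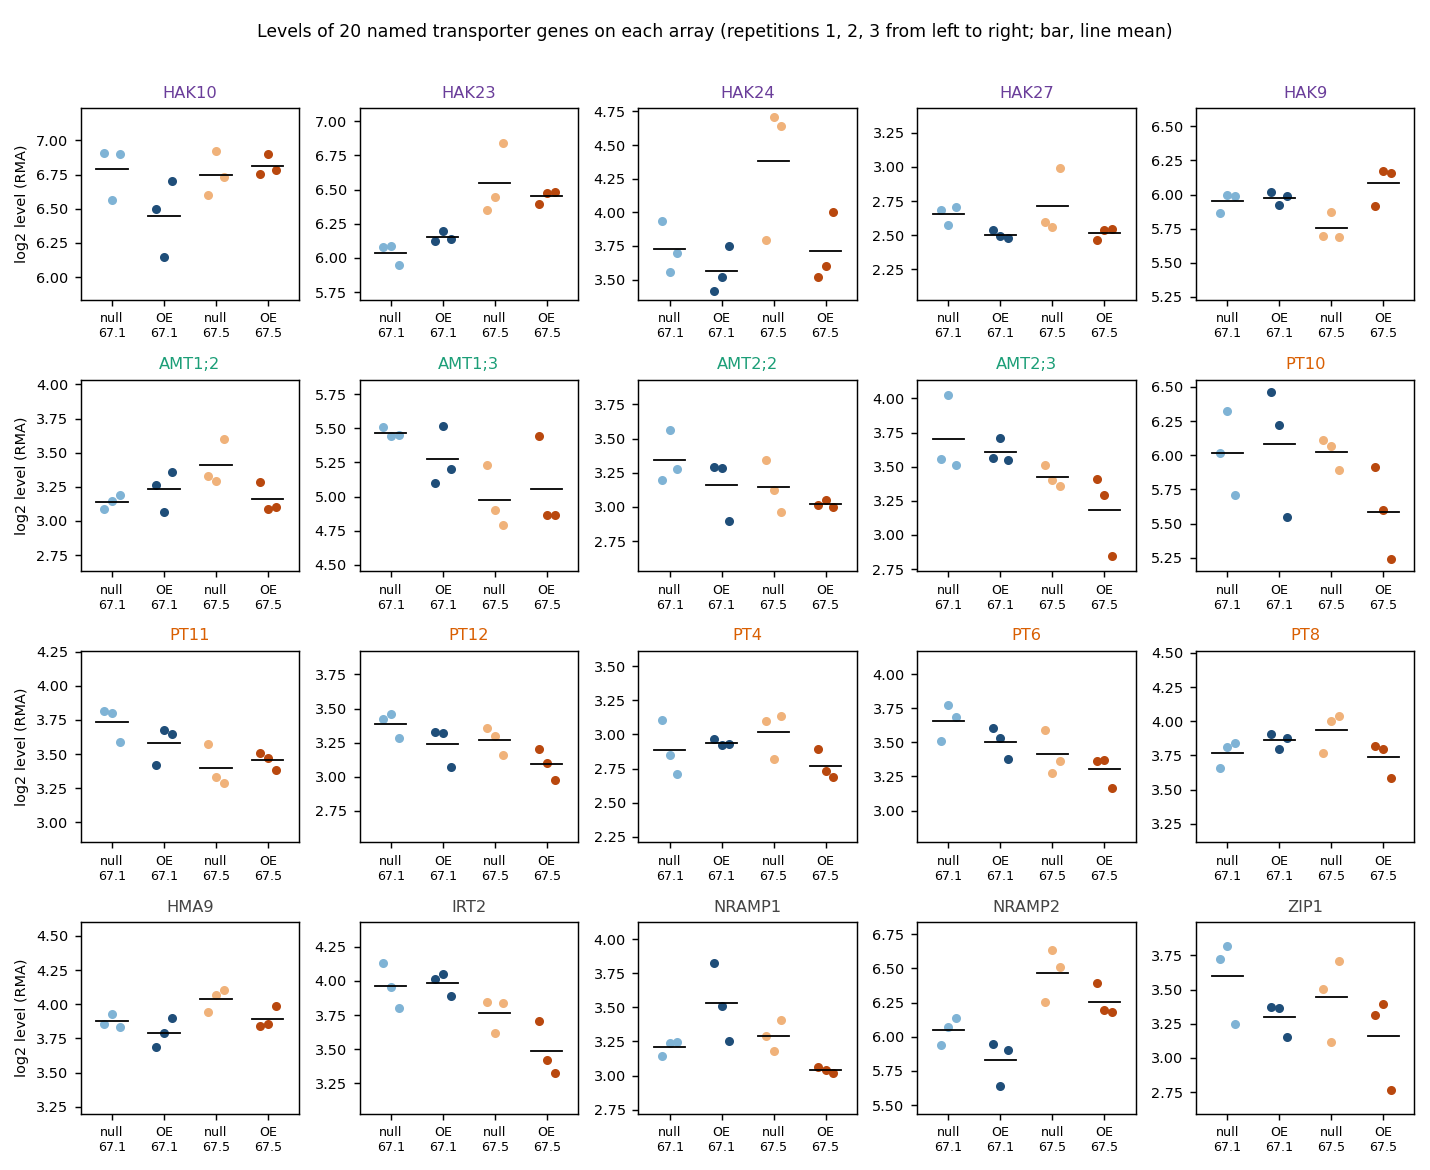
Log2 level of the 20 named genes on each of the 12 arrays (points, repetitions 1 to 3 from left to right; bar, mean of the line), with panels on their own vertical axis; the panel of HAK24 shows 2 null 67.5 arrays at 4.71 and 4.64 above the rest, and the panel of NRAMP1 shows OE 67.1 spread up to 3.82.

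The nitrogen carriers had no member called. The nitrate carriers NRT2.1, between 2.62 and 2.94, and NRT2.2, between 2.34 and 2.67, are neighbours with 0 genes between them in the gene table and encode near-identical proteins, so their probe sets may read each other's RNA. They differed by -0.04 and -0.06 for the mean of both couples, and NRT2.3 lay between 3.59 and 3.94 on all arrays. AMT2;3 (LOC4327433), an ammonium carrier, measured 3.56, 4.03 and 3.51 in null 67.1, 3.56, 3.71 and 3.55 in OE 67.1, 3.51, 3.40 and 3.36 in null 67.5 and 3.41, 3.29 and 2.85 in OE 67.5. Its arrays overlapped in both couples, and the difference for the mean was -0.17 ± 0.11 (95% interval -0.39 to 0.06). AMT2;2 (LOC4327434), 2 genes away from it, differed by -0.16 ± 0.09.

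AMT1;2 and AMT1;3 are high-affinity ammonium carriers with 0 genes between them. In couple 67.5 AMT1;2 (LOC4330008) measured 3.33, 3.30 and 3.60 in the null line and 3.29, 3.09 and 3.10 with overexpression. The groups did not overlap, by a gap between 3.30 and 3.29, and the difference was -0.25 ± 0.11 with an adjusted p of 0.426 by limma. In couple 67.1 the levels were 3.08, 3.14 and 3.19 against 3.26, 3.07 and 3.36. AMT1;1, another of these carriers, lay between 2.51 and 3.08 and differed by -0.09 for the mean of both couples. Without null 67.5 replicate 1 the couple 67.5 difference of AMT1;2 was -0.29 ± 0.12, with an adjusted p of 0.483 by limma. Of the 12 nitrogen genes 11 were lower for the mean of both couples, with a median of -0.06, beside 46.8% of all tested. It was 7 in couple 67.1 and 9 in couple 67.5, beside 47.3% of all tested in each. Without null 67.5 replicate 1, NRT2.3 (0.016), AMT1;3 (0.008) and AMT2;1 (0.034) lay above 0 for the mean of both couples.

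None of the phosphate carriers passed. PT10 (LOC9267349) had the widest spread of line means in its class: it measured 6.01, 6.32 and 5.71 in null 67.1, 6.47, 6.22 and 5.55 in OE 67.1, 6.11, 6.07 and 5.89 in null 67.5, and 5.92, 5.60 and 5.24 in OE 67.5. The repetitions of a line differed as much as the lines did, and the couple 67.5 difference of -0.44 ± 0.22 had an adjusted p of 0.479 by limma. PT12 (LOC4331634) measured 3.42, 3.46 and 3.28 in null 67.1, 3.33, 3.32 and 3.07 in OE 67.1, 3.36, 3.30 and 3.16 in null 67.5 and 3.20, 3.10 and 2.98 in OE 67.5. Its difference for the mean was -0.16 ± 0.07, with an adjusted p of 0.519 by limma.

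PT4 (LOC4335115), a phosphate uptake carrier, measured 3.10, 2.82 and 3.14 in null 67.5 and 2.90, 2.73 and 2.68 in OE 67.5, and 3.11, 2.85 and 2.71 against 2.97, 2.92 and 2.93 in couple 67.1. The groups overlapped in both couples. PT8 (LOC4348741), which takes part in phosphate uptake and its movement to the shoot, was at 3.77, 4.0 and 4.04 in null 67.5 and at 3.82, 3.80 and 3.59 in OE 67.5, and overlapped through the 3.77 of null 67.5 replicate 1. The difference was -0.20 with that array, and without it -0.28 ± 0.10, with no overlap and an adjusted p of 0.391 by limma. PT6 (LOC4346342), also an uptake carrier, differed by -0.13 ± 0.08 for the mean of both couples. Of the 10 phosphate carriers 9 were lower for that mean, with a median of -0.06, beside 46.8% of all tested. It was 5 of 10 in couple 67.1 and 8 of 10 in couple 67.5, beside 47.3% of all tested in each.

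The metal carriers included NRAMP2 (LOC4332012), which lay above the median of every array. It measured 5.94, 6.07 and 6.14 in null 67.1, 5.94, 5.64 and 5.90 in OE 67.1, 6.26, 6.63 and 6.51 in null 67.5 and 6.39, 6.19 and 6.18 in OE 67.5. Each couple overlapped, with differences of -0.22 and -0.21, and the mean of -0.22 ± 0.08 had an adjusted p of 0.454 by limma. In couple 67.5 the overlap came from null 67.5 replicate 1, at 6.26; without it the arrays separated, and the difference was -0.31 ± 0.12 with an adjusted p of 0.417 by limma. ZIP1 (LOC4326394) measured 3.73, 3.82 and 3.25 in null 67.1, 3.37, 3.37 and 3.15 in OE 67.1, 3.51, 3.11 and 3.71 in null 67.5 and 3.32, 3.39 and 2.77 in OE 67.5. The repetitions overlapped in each couple, and the mean difference of -0.29 ± 0.13 had an adjusted p of 0.541 by limma.

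IRT2 (LOC4333667), a ferrous iron carrier, measured 3.85, 3.62 and 3.84 in null 67.5 and 3.71, 3.42 and 3.33 in OE 67.5, where the groups overlapped, and the difference was -0.28 ± 0.12 with an adjusted p of 0.41 by limma. In couple 67.1 it measured 4.13, 3.95 and 3.80 against 4.01, 4.05 and 3.89. IRT1, the main ferrous iron carrier of the root surface, lay between 2.77 and 3.20 on all arrays and differed by 0.08 for the mean of both couples. HMA9 (LOC4341778), a metal efflux pump, differed by -0.11 ± 0.06 for that mean. NRAMP5, which takes up manganese and cadmium, lay between 5.23 and 5.66 and differed by 0.10, with an interval from -0.06 to 0.25. HMA2, which passes zinc and cadmium towards the shoot, lay between 5.39 and 5.60, with an interval from -0.12 to 0.12. MTP1, a vacuolar zinc carrier, lay between 7.11 and 7.56 and differed by 0.07. ZIP3, a zinc carrier of the nodes, differed by 0.31 ± 0.13 in couple 67.5 and by 0.17 for the mean, with an interval from -0.03 to 0.37. Across the 28 metal carriers 17 were lower for the mean of both couples, with a median of -0.03, beside 46.8% of all tested. The count was 13 in couple 67.1 and 19 in couple 67.5, beside 47.3% of all tested in each.

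The 2 couples were then set against each other, as a test of whether overexpression went with the same difference in each. No member passed for the difference between couples, against 8 of all tested (0.033%), and 4 of the 80 genes (5%) had an unadjusted p under 0.05 against 5% of all. The gene with the smallest p was NRAMP1 (LOC4342862), an iron and cadmium carrier. It measured 3.15, 3.24 and 3.24 in null 67.1 and 3.82, 3.51 and 3.25 in OE 67.1, and it measured 3.29, 3.18 and 3.41 in null 67.5 and 3.07, 3.04 and 3.02 in OE 67.5. The overexpression arrays lay above their null arrays in couple 67.1 and below them in couple 67.5, an opposite order that 0.408% of all probe sets had. The couples differed by -0.57 ± 0.17, with an adjusted p of 0.667 by limma. All its levels were below the array medians. MTP3, a metal carrier, differed by 0.31 ± 0.13 in couple 67.1, by -0.18 in couple 67.5 and by -0.49 ± 0.18 between them. Among all members 37 had the same sign in both couples (46.2%), against 56.6% of all tested. The plot of one couple against the other shows this scatter.

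**Figure D3:**
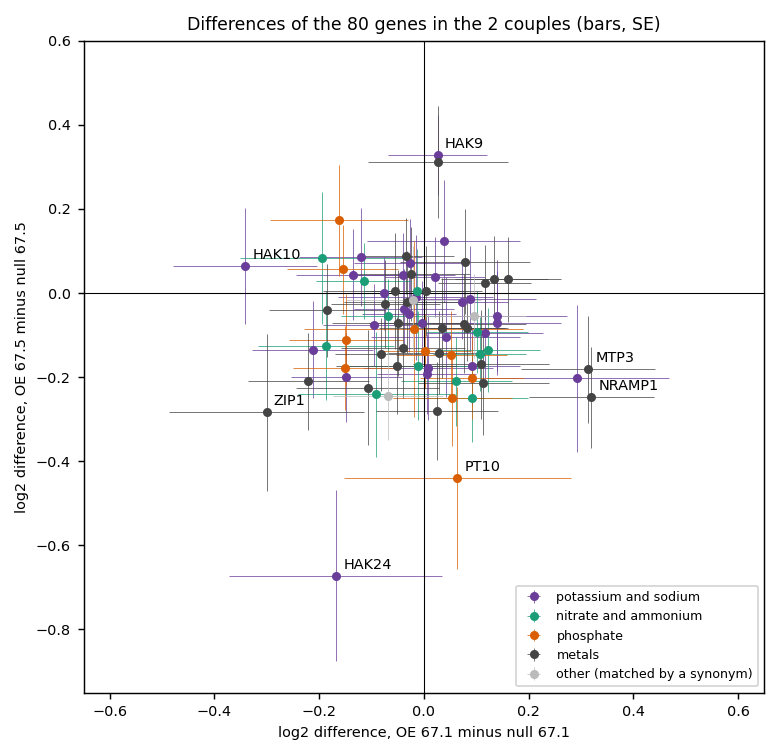
Log2 difference, overexpression minus null, in couple 67.1 (horizontal) and couple 67.5 (vertical) for the 80 genes, coloured by ion, with SE bars. HAK24 lies lowest, at -0.67 in couple 67.5, and NRAMP1 lies at 0.32 and -0.25.

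The direction of the differences leaned lower in couple 67.5 without passing for any gene. There 58 of the 80 genes were lower with overexpression, against 47.3% of all tested, while in couple 67.1 it was 41 of 80, against 47.3%. For the mean of both couples it was 55 of 80, against 46.8%. For the difference, couple 67.5 minus couple 67.1, 48 were below 0, against 49% of all. The medians were -0.08 in couple 67.5, -0.01 in couple 67.1 and -0.04 for the mean, against 0.01 for all tested in each. In couple 67.5, arrays did not overlap for 10 members, against 14.9% of all tested, and 8 of these had overexpression lower, against 6.88%. Without null 67.5 replicate 1 it was 24 members, against 24.5% of all, 19 of them with overexpression lower, against 13.3%, and 60 of the 80 were lower at any size. In couple 67.1 it was 6 members, against 9.29%. OE 67.5 was the lowest line for 38 of the 77 genes with transporter names (49.4%), against 29.9% of all, and null 67.5 was the highest for 26 (33.8%), against 20.4%.

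The lean moved with signal level, and transporters were more often dim than other genes. Of the 80, 42 lay below the median of every array (52.5%) against 38% of all tested, and 29 lay above it (36.2%) against 46.9%. In couple 67.5, 34 of the 42 dim members were lower (81.0%), against 58.9% of all probe sets that dim, and 15 of the 29 bright members were (51.7%), against 36.9%. All 9 of the remaining members were lower, against 50.3%. Over all probe sets in that couple, the share that was lower ran from 63.9% in the dimmest of 10 level bins to 34.8% in the brightest. The interquartile range of the arrays was 2.2 to 2.31 in null 67.5 and 2.28 to 2.38 in OE 67.5, and the part of this spread in the lean was not tested. Green tissue markers, 11 of 11, and markers of shoot meristem and stem, 6 of 6, were also lower in OE 67.5 than in null 67.5. Root markers were lower there for 3 of 5 and seed markers for 7 of 13, and the share of all tested was 47.3%. In couple 67.1, with the same share of all tested, it was 10 of 11, 6 of 6, 4 of 5 and 11 of 13 in that order. The part of these tissues was not tested.

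**Figure D4:**
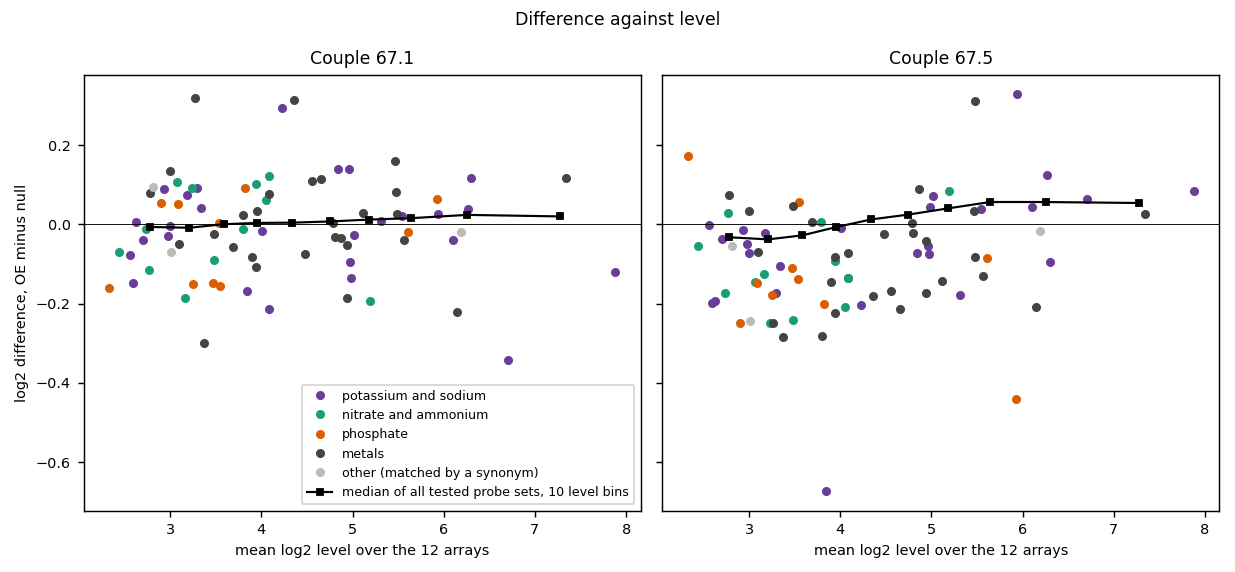
Log2 difference of each of the 80 genes (points, coloured by ion) against its mean log2 level over the 12 arrays, in couple 67.1 (left) and couple 67.5 (right). Black squares are the medians of all tested probe sets in 10 level bins, which in couple 67.5 run from -0.03 in the dimmest bin to 0.05 in the brightest.

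The null lines carry no transgene, and a comparison between them shows how far lines of different couples differ without it. It does not show how far an overexpression line and its own sister line would differ without it. No member passed, against 56 of all tested (0.231%), though 12 of the 80 (15%) had an unadjusted p under 0.05, against 17.5% of all. The closest was HAK23 (LOC4346918), another HAK carrier, which measured 6.08, 6.09 and 5.95 in null 67.1 and 6.35, 6.44 and 6.84 in null 67.5, with no overlap. The difference, null 67.1 minus null 67.5, was -0.51 ± 0.11, with an adjusted p of 0.0715 by limma. HAK23 was high in OE 67.5 as well, at 6.40, 6.47 and 6.48, and lower in OE 67.1, at 6.13, 6.20 and 6.14. NRAMP2 differed between the null lines by -0.42 ± 0.12 and HAK24 by -0.65 ± 0.20. In null 67.1 47 members were lower than in null 67.5, against 53.2% of all. Arrays of the null lines did not overlap for 12 members, against 21.1% of all.

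AMT1;3 (LOC4330007) was higher in null 67.1, at 5.51, 5.44 and 5.45, than in null 67.5, at 5.23, 4.90 and 4.79, with no overlap. Its neighbour AMT1;2 went the opposite way, by -0.27 ± 0.11 against 0.49 ± 0.16 for AMT1;3. PT11 (LOC4324187), a phosphate carrier of mycorrhizal symbiosis, measured 3.82, 3.80 and 3.59 in null 67.1 and 3.58, 3.33 and 3.29 in null 67.5, a difference of 0.34 ± 0.11. Of the 6 NRAMP genes all 6 were lower in null 67.1, against 53.2% of all tested, but only 1 had an unadjusted p under 0.05 by limma. In the other families it was 4 of 4 HMA, 5 of 6 MTP, 16 of 25 HAK and 6 of 10 ZIP genes. It was 1 of 2 IRT, 4 of 9 AMT, 3 of 10 PT and 0 of 3 NRT2 genes. AKT1 was lower and HKT1;5 was not. Without null 67.5 replicate 1, the comparison called 1113 of all tested (4.59%) and 5 of the 80 genes (6.25%), all by limma. That array was singled out by its likeness to the null 67.1 arrays, so leaving it out favours wider differences here. These calls are therefore no independent support for a difference. Array weights, with all arrays kept, called 764 of the 24251 tested probe sets, and among the 80 genes 4 of these 5. Such weights can count the same array for less, which was not checked. The 5 genes called without that array were HAK24 at -0.94 (adjusted p 0.0114 by limma), HAK23 at -0.61 (0.0183), NRAMP2 at -0.52 (0.0287), PT11 at 0.43 (0.0425) and AMT1;3 at 0.62 (0.0497).

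The other genes of mineral nutrition, 79 with names for regulators, chelators, assimilation enzymes and further ion carriers, gave 1 call for the mean of both couples, beside 0.186% of all tested. It was NAS3, a nicotianamine synthase that makes a metal chelator, at -0.60 ± 0.11 with an adjusted p of 0.043 by limma. Without each array in turn NAS3 passed in 2 of 12 fits, with an adjusted p of 0.0673 by limma without null 67.5 replicate 1. In couple 67.5, beside 0.342% of all tested, 1 gene passed, YSL2, a carrier of metal-nicotianamine complexes that the name rule leaves out, at -0.53 with an adjusted p of 0.037 by limma, and in couple 67.1 it differed by 0.28. YSL2 passed in 3 of 12 such fits, with an adjusted p of 0.0878 by limma without null 67.5 replicate 1. With all arrays, the remaining comparisons had 0 calls among the 79. The widest difference of the 79 in couple 67.5, -2.81 for the iron gene NAS1, did not pass with all arrays. Without null 67.5 replicate 1, couple 67.5 called 2 of the 79, beside 0.21% of all tested. They were NAS1 at -3.59 ± 0.53 (adjusted p 0.0209 by limma) and NAAT1 at -1.02 ± 0.18 (0.0477 by limma). For the null lines that fit called 4 of the 79 lower and 1 higher in null 67.1, beside 4.59% of all tested. NAS3 was among those lower, at -0.72 ± 0.18 (adjusted p 0.0396 by limma). NAS1 differed there by -1.93 ± 0.53 and did not pass (adjusted p 0.0551 by limma). Of the 28 genes of iron regulation and chelation 20 were lower for the mean of both couples, beside 46.8% of all tested. It was 7 of 15 in nitrogen assimilation and 7 of 12 in phosphate regulation. Among further potassium and sodium genes it was 2 of 5, and among vacuolar and other ion genes 9 of 19. PHO1;2, which loads phosphate into the xylem, differed by -0.29 ± 0.08 with an adjusted p of 0.266 by limma.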

How the data were processed

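Gene expression was measured on 12 one-colour Affymetrix arrays, 3 for each of 4 lines. The deposited log2 values had been made by the authors with RMA, per the submitters' processing notes. The version of RMA, the build and the probe annotation were not given in the sources used here. Differences of dim genes are compressed by this method, and precision is limited by how many arrays there are. Of 36643 probe sets, 24251 were paired with a gene and tested, 24161 of them with 1 gene; 12392 were unnamed and entered only as an alternative. The RefSeq gene table (assembly ASM3414082v1) gave names and neighbours, but no coordinates. No sequences are shown.

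Using limma 3.58.1 under R 4.3.3, lmFit and eBayes estimated 1 mean per line from all 12 arrays, which left 8 residual degrees of freedom. There were 5 contrasts; tests were two-sided, with Benjamini-Hochberg adjusted p under 0.05 as the call. The procedure was tested on simulated data with independent noise on every array. That simulation had no array that stood apart and no shared repetition effect, and it is not used as support here. Exact permutation with 3 against 3 arrays has 0.1 as its smallest p. P-values measure only the spread among repetitions of a line, so sister lines that differ for another reason than the transgene give calls too.

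The members, lists and tests were chosen with earlier results of these data known. Named genes were, per ion class, up to 3 members with the smallest unadjusted p for the mean of both couples, the smallest for each other contrast, the widest range of line means, and any member separated the same way in both couples. HAK1, HAK5, AKT1, HKT1;5, the NRT2 genes, AMT1;1, IRT1, NRAMP5, HMA2, MTP1, MTP3, ZIP3, NAS1, NAS3, NAAT1, YSL2 and PHO1;2 are given outside this rule, chosen after their values were seen. From the other lists, 14 genes with unrelated names were left out, which emptied the list of sulfate assimilation. Repetition numbers entered only as an alternative.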

Additional observations from a re-analysis of the deposited data

Results flagged for a closer look

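NRAMP1 moved in opposite directions in the couples: its overexpression arrays all lay above the null arrays in couple 67.1 and all below them in couple 67.5, a difference between couples of -0.57 on the log2 scale. The test of that difference gave an unadjusted p of 0.0046 and an adjusted p of 0.667 by limma, so it did not pass. In couple 67.1 the separation rested on arrays at 3.25 and 3.24.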

How the results depend on the processing

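Leaving out each array in turn, members called ranged from 0 to 1 in couple 67.5 (HAK24, without null 67.5 replicate 1) and from 0 to 5 for the null lines, and were 0 for the other comparisons. Array weights called 4 members for the null lines (PT11, NRAMP2, HAK24 and HAK23), and the replicate block called 1 (HAK23, adjusted p 0.0406 by limma); the block changed no other call among the members. The labels tie no shared day to a repetition number. Deviations of same-numbered arrays correlated at -0.251 to 0.422 (median 0.160; number 3 at 0.161 to 0.422), different numbers at -0.390 to 0.347 (median -0.072), and 7 of 12 arrays correlated best with their own number, so the numbers were not taken to pair the samples. With dim probe sets left out, 32 members remained, of which 19 were lower for the mean of both couples, 16 in couple 67.1, 18 in couple 67.5, 14 for the difference and 23 for the null lines; fewer genes entered there. Without each array in turn, members lower ranged from 48 to 62 for the mean, 34 to 47 in couple 67.1, 56 to 60 in couple 67.5, 49 to 55 for the difference and 43 to 50 for the null lines.

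Over all tested probe sets the mean of both couples called 45, but 25 with unnamed probe sets included and 14 to 46 without each array. It called 62 with a further quantile normalization, 59 with array weights and 59 with the replicate block. Couple 67.1 called 4, but 7 with quantile normalization, with dim probe sets left out, with an intensity trend and robust variance, or with array weights. It called 3 with the replicate block and 2 to 6 without each array. Couple 67.5 called 83, but 33 with unnamed probe sets, 29 with its own arrays only and 20 to 88 without each array. It called 98 with quantile normalization and 118 with the replicate block. The difference called 8, but 5 with quantile normalization and 3 to 7 without each array. It called 10 with dim probe sets left out or with the replicate block. The null lines called 56, but 89 without dim probe sets, 764 with array weights, 507 with the replicate block, 20 with their own arrays only and 10 to 1113 without each array.

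Named members changed sign in 7 of 346 fits for the mean of both couples, 8 of 366 in couple 67.1 and 4 of 366 in couple 67.5, none past the threshold; the cause was not tested. For the mean of both couples HAK23 was -0.026 with quantile normalization, and without each array it ran from -0.038 to 0.084, AMT1;3 from -0.15 to 0.0082 and NRAMP1 from -0.038 to 0.11. In couple 67.1, AMT2;3 ran from -0.18 to 0.073, IRT2 from -0.056 to 0.11, PT4 from -0.036 to 0.16, PT10 from -0.13 to 0.33 and HAK9 from -0.016 to 0.053. In couple 67.5, AMT1;3 ran from -0.11 to 0.21, HAK10 from -0.013 to 0.15 and HAK23 from -0.19 to 0.053. Signal over background was not used here, so dim members such as NRT2.2 cannot be told from background.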
